A study of Mus musculus with 6 samples.

Results

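Transporters that carry organic anions and organic cations across cell membranes were examined in newborn mouse kidney and ureter. The members were all genes of the deposited table whose symbol belongs to the SLC22 family, the SLCO family or the SLC47 family (Slc22a and Slco with any number, Slc47a1 and Slc47a2), 42 of 24532 genes. They were 5 organic cation transporters, 4 carnitine and zwitterion transporters, 13 organic anion and urate transporters, 15 organic anion transporting polypeptides and 5 other SLC22 genes, and each name was met once in the table.

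In the mature kidney, cells of the proximal tubule take up organic anions and cations from blood through SLC22 uptake carriers of the basolateral membrane and release them into urine through apical carriers and pumps. This route clears drugs, toxins and metabolites, and related apical carriers recover urate and carnitine from the filtrate. The ureter conducts urine and is lined by urothelium wrapped in smooth muscle, and it has no tubule. SLCO proteins carry bile acids, thyroid hormones, prostaglandins and steroid conjugates in many tissues.

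Bulk RNA sequencing covered 6 libraries from mice at postnatal day 1 (PN1). In kidney there were 2 Ahnak KO and 2 WT libraries, and in ureter there was 1 Ahnak KO and 1 WT library, whose titles read kidney while their source is given as ureter. Ahnak KO mice carried a disruption of exon 5 of Ahnak, a large scaffold protein gene, and WT mice were the controls. RNA came from 2 to 4 kidneys or ureters by the methods, and nothing in the labels says how many animals entered a library, so p-values measure the spread between these libraries. The deposited counts summed to between 55744703 and 66095616 in the kidney libraries, 36410246 in the KO ureter library and 54985927 in the WT ureter library. A count of 3, used as the floor, stood for 0.0421 to 0.101 CPM (counts scaled to the library total after its correction by edgeR's TMM factor) and covers counting error only.

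The tissue labels were checked first. Summed over 8 urothelium markers, TPM (a transcript level scaled by gene length and library) lay between 91.2 and 108.9 in kidney and at 8233 and 8858 in ureter, and 7 smooth muscle markers summed to 500.5 to 611 against 4404 and 5772. Smtn of the smooth muscle list was at 48.5 TPM in the KO ureter library, below its kidney range of 57.9 to 66.6 TPM. All 5 loop and distal tubule markers were listed at 0 in both ureter libraries, as were 7 of 14 proximal tubule markers. Aqp1 of the proximal tubule list was higher in ureter, at 176 and 140 TPM against 103 to 135 TPM in kidney. The rest of that list was lower in both ureter libraries than in every kidney library. The groups follow the source label, not the titles. Striated muscle markers summed to 200.2 and 521 in ureter, above kidney at 13.9 to 15.6. Hepatocyte markers summed to 152 and 204.5 in ureter, above kidney at 60.5 to 81.0. Within the hepatocyte list Serpina1a and Cyp2e1 went the other way, lower in both ureter libraries than in every kidney library. In the KO ureter library, Ttr of that list and Tnnt3 and Myh8 of the striated muscle list lay within the kidney range. The other genes of both lists were higher in both ureter libraries than in every kidney library. The part of these cell types in the ureter values below was not tested. In the KO ureter library the ribosomal RNA precursor Rn45s took 8.06% of counts, against 0.496% to 0.632% in the other 5. KO kidney replicate 1 had Xist at 363 TPM and the Y-linked markers at 0, and the other 5 libraries had Xist under 0.1 and all 4 Y-linked markers. Ahnak itself was at 21.4 ± 1.11 TPM (SD, n = 2) in KO and 26.2 ± 2.07 TPM (SD, n = 2) in WT kidney, a log2 fold change of -0.47 (SE 0.0961, adjusted p = 0.9999 by edgeR's quasi-likelihood test), and at 88.0 TPM in KO and 77.5 TPM in WT ureter, so the KO label was not reflected in a loss of reads over the whole gene.

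Members of these families lie side by side on the chromosomes, and neighbours differed between the tissues. Coordinates are of GRCm38 from RefSeq. On chromosome 19, Slc22a19, Slc22a26, Slc22a27, Slc22a28, Slc22a29, Slc22a30, Slc22a8 and Slc22a6 lie within chr19:7673075-8628299, a stretch of 955 kb. Of these 8 neighbours, 7 were present in kidney and all 8 were listed at 0 in both ureter libraries. Slc22a3 and Slc22a2 lie within 209 kb at chr17:12419972-12628489 and had opposite patterns, with counts of Slc22a2 in kidney only and of Slc22a3 mostly in ureter. Slc22a5, Slc22a21 and Slc22a4 lie within 165 kb at chr11:53864542-54030040 and had counts in both tissues. The 6 genes from Slco1c1 to Slco1a5 span chr6:141524354-142322981, and only Slco1a4 and Slco1a6 of them were present in kidney. Slc47a2 and Slc47a1 are neighbours at chr11:61301627-61378842, while Slc22a17 lies alone at chr14:54906727-54913132 and Slc22a23 at chr13:34179158-34345275.

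The promoters of the Slc22a6 and Slc22a8 pair and of the Slc22a2 and Slc22a3 pair are shown because the former pair was listed at 0 in ureter and the latter pair had opposite tissue levels. Each runs 5′ to 3′ on the strand of its gene over 300 bases, 250 before and 50 after an annotated start, from RefSeq on GRCm38.p6. Capitals mark GTTAAT, the core letters of the site bound by HNF1 factors, searched on both strands.
Slc22a6, chr19:8617746-8618045, plus strand: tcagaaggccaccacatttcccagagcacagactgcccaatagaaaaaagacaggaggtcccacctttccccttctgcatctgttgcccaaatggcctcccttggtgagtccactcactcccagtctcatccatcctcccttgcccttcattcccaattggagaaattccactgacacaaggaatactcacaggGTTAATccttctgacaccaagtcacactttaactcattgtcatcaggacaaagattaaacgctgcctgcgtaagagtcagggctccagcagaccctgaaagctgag
Slc22a8, chr19:8592932-8593231, plus strand: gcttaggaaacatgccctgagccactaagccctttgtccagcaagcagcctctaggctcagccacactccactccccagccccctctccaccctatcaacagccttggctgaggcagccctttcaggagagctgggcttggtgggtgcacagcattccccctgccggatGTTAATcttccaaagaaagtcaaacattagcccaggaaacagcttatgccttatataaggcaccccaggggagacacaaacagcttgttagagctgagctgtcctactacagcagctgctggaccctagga
Slc22a2, chr17:12583939-12584238, plus strand: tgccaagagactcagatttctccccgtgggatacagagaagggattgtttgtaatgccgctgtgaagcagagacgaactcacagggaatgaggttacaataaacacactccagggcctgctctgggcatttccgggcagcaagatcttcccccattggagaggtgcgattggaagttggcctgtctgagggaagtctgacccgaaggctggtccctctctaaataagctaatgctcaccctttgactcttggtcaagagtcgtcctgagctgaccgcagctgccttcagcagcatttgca
Slc22a3, chr17:12507655-12507954, minus strand: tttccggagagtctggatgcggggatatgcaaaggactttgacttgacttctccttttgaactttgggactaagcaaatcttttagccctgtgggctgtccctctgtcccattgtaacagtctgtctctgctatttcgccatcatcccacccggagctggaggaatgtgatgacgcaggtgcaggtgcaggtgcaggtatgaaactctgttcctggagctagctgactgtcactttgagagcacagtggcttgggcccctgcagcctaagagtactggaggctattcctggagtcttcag

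The letters GTTAAT stood 56 bases before the start of Slc22a6 and 81 bases before the start used for Slc22a8, and these windows of Slc22a2 and Slc22a3 held none. The start used for Slc22a8 lies inside that gene, whose span begins at chr19:8591254. Windows were at hand for 36 of the 42 members, with none used for Slc22a7, Slc22a21, Slc47a1, Slco3a1 and Slco5a1. GTTAAT was in those of Slc22a6, Slc22a8, Slc22a29 and Slco1b2, that is 4 of 41 member windows, against 7.10% of 32851 windows of all genes. AGTCCA, the end of the element CAAAGTCCA bound by HNF4, was in 8 of the 41 windows, from 7 genes, and in 14.1% of all windows. The whole of CAAAGTCCA was in none of the member windows and in 0.475% of all windows. A match, or its absence, in these windows was not read as binding.

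A gene was called present in a tissue where TPM was at least 1 in every library of that tissue. In kidney 27 of 42 members were present, and in ureter 12 were, against 56.3% and 54.2% of all 24532 genes. A group of 11 was present in both tissues, Slc22a3 in ureter alone by this rule, and 16 in kidney alone. Of those 16, 14 were listed at 0 counts in both ureter libraries (Slc22a2, Slc22a6, Slc22a8, Slc22a12, Slc22a13, Slc22a19, Slc22a22, Slc22a27 to Slc22a30, Slco1a4, Slco1a6 and Slco4c1), and the other two, Slco4a1 and Slc22a4, had low counts there. Among all 13810 genes present in kidney, 1.99% were listed at 0 in both ureter libraries. A listed 0 is an estimate and does not exclude a few reads, since the table lists between 251 and 742 genes at 1 to 3 counts per library beside 6415 to 8530 at 0.

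**Figure D1:**
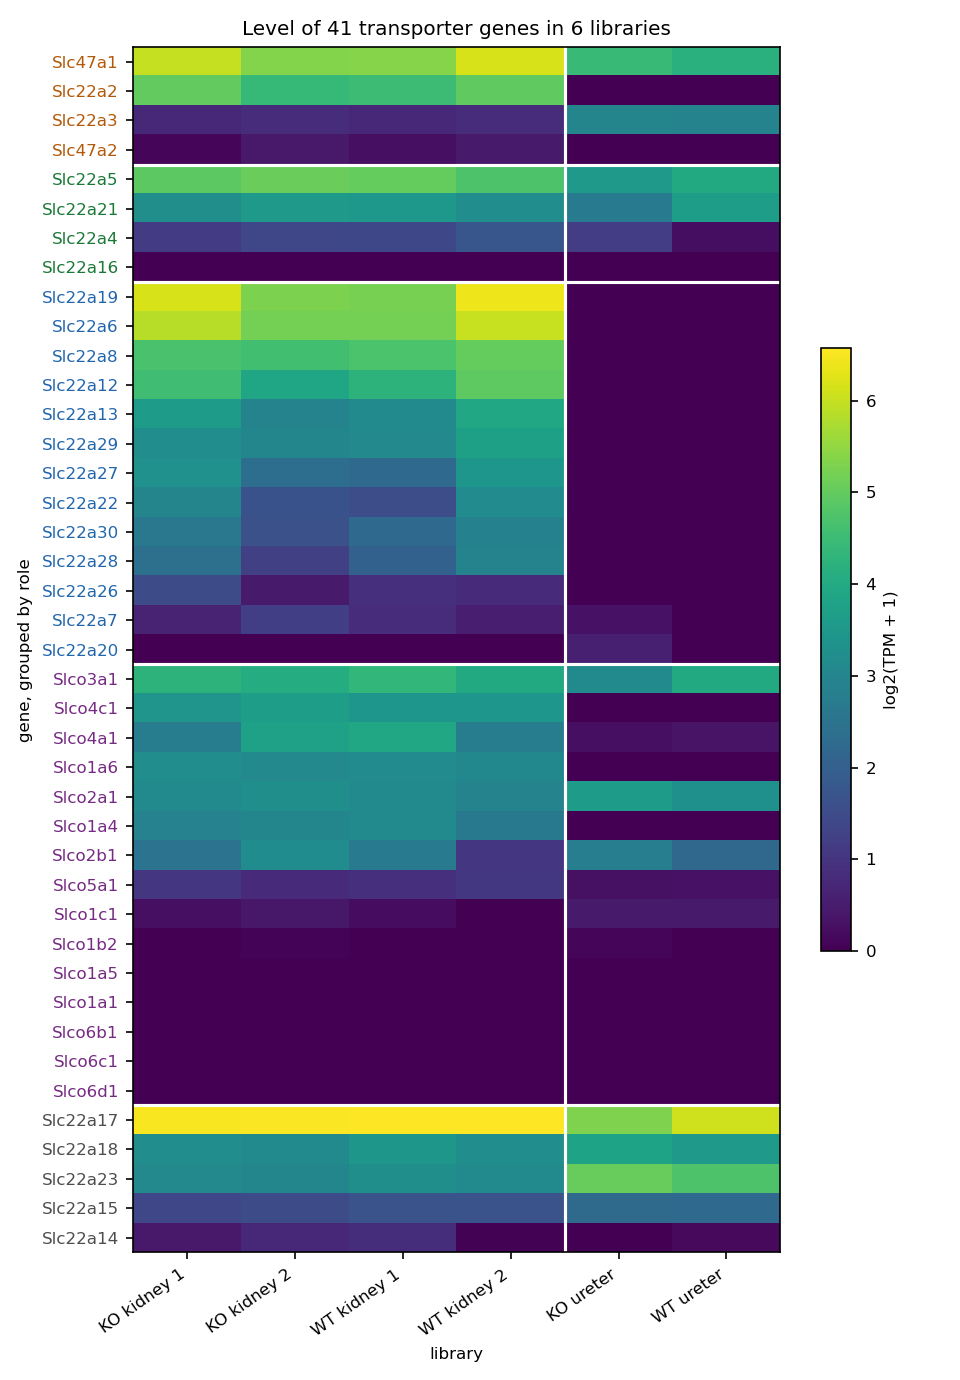
Levels of 41 members as log2(TPM + 1), with genes in rows grouped by role and the 6 libraries in columns. The organic anion and urate block is dark in both ureter columns, while Slc22a3 and Slc22a23 are brighter in ureter than in kidney.

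Organic anion carriers made the sharpest tissue contrast. Slc22a6 encodes OAT1, a basolateral exchanger that brings anions such as para-aminohippurate into the proximal tubule cell, and it was at 57.1 and 35.9 TPM in the KO kidneys, 35.8 and 63.3 TPM in the WT kidneys and 0 in both ureters. Slc22a8, encoding its partner OAT3, was at 24.9 and 22.8 TPM in KO kidneys, 25.0 and 31.1 TPM in WT kidneys and 0 in both ureters. In neither gene did a kidney library approach the ureter value. Counts of Slc22a6 were at least 2449-fold higher in kidney and those of Slc22a8 at least 1088-fold higher, each as the mean kidney CPM over a floor of 3 counts in the ureter libraries together. Both passed the test between tissues (adjusted p = 0.000120 and 2.24e-05, edgeR's quasi-likelihood test with Benjamini-Hochberg adjustment over all genes).

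Slc22a19, encoding OAT5 of the apical membrane, had the highest kidney level of this group, with 71.1 and 37.8 TPM in KO kidneys, 36.4 and 83.3 TPM in WT kidneys and 0 in ureter. Slc22a12, the urate transporter URAT1, followed at 22.3 and 13.7 TPM in KO and 17.9 and 29.8 TPM in WT kidneys. Slc22a13, a urate and nicotinate carrier, was at 11.3 and 6.70 TPM in KO and 7.81 and 14.1 TPM in WT kidneys. Their kidney counts were at least 1434-fold, 597-fold and 253-fold above the ureter floor.

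The rodent OAT relatives of the chromosome 19 run were lower. Slc22a29 was at 8.33 and 7.16 TPM in KO and 7.51 and 12.3 TPM in WT kidneys, and Slc22a27 at 8.9997 and 4.14 TPM in KO and 3.72 and 9.88 TPM in WT kidneys. For Slc22a30 the levels were 5.18 and 2.07 TPM in KO and 3.78 and 6.42 TPM in WT kidneys, and for Slc22a28 they were 4.397 and 1.37 TPM and 3.09 and 6.73 TPM. The 4 genes were listed at 0 in ureter, at least 98.7-fold to 246-fold below kidney. Slc22a26 reached 1 TPM only in KO kidney replicate 1, with 1.91 and 0.385 TPM in KO and 0.882 and 0.709 TPM in WT kidneys, and 0 in ureter. These genes resemble one another in sequence, so the estimate can move reads between neighbours and their single levels are uncertain. The globin copies Hba-a1 and Hba-a2 were listed at 1009 and 0.461 TPM in KO kidney replicate 1 and at 18.4 and 1011 TPM in KO kidney replicate 2. Whether reads moved between copies was not tested, for the globins or for these Slc22a genes.

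Slc22a22, a prostaglandin-specific organic anion transporter on chromosome 15, was at 6.91 and 2.12 TPM in KO and 1.94 and 8.01 TPM in WT kidneys and 0 in ureter. Slc22a7, encoding OAT2, reached 1.32 TPM in KO kidney replicate 2 and lay at 0.567 TPM in the other KO kidney, 0.796 and 0.458 TPM in the WT kidneys, 0.256 TPM in the KO ureter and 0 in the WT ureter. Its tissue difference did not pass the test (log2 fold change 2.69 in favour of kidney, SE 1.39, adjusted p = 0.161 by edgeR). Slc22a20, an odorant-binding anion carrier of the olfactory mucosa, was listed at 0 in 5 libraries and had 18 counts in the KO ureter. In all, 11 of the 12 organic anion and urate genes tested were higher in kidney and none was higher in ureter, where 23.7% and 21.4% of all genes tested were. The group summed to 136 to 266 TPM in kidney and to 0.735 and 0 TPM in ureter.

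Organic cation carriers did not all have the same direction between the tissues. Slc47a1, encoding MATE1, the apical exchanger that releases cations into urine, was at 62.9 and 39.5 TPM in KO kidneys, 40.8 and 70.7 TPM in WT kidneys, and 21.0 and 17.1 TPM in KO and WT ureter, so it was a major member in both. Kidney was higher by a log2 fold change of 1.10 (SE 0.2995, adjusted p = 0.0256 by edgeR), a call lost without KO kidney replicate 1 (0.99, adjusted p = 0.0593). It was also lost without the WT ureter library (0.82) and with KO libraries only (0.82), each a fit with 1 ureter library. Slc47a2, encoding the related MATE2, stayed under 0.4 TPM in every library and had 6 to 27 counts in kidney and 0 in ureter, at least 8.15-fold lower, with adjusted p = 0.0408 by edgeR. That call was lost under 9 of 14 alternatives, including the removal of any library other than KO kidney replicate 1 (adjusted p = 0.0582 to 0.132).

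Slc22a2, encoding OCT2, the basolateral cation carrier of the proximal tubule, was at 31.1 and 19.97 TPM in KO kidneys, 21.7 and 30.0 TPM in WT kidneys and 0 in ureter, at least 696-fold lower. Its neighbour Slc22a3, encoding OCT3, the extraneuronal monoamine transporter, went the other way, with 0.691 and 0.770 TPM in KO kidneys, 0.654 and 0.788 TPM in WT kidneys, 6.90 TPM in the KO ureter and 6.64 TPM in the WT ureter. It was 12.1-fold higher in ureter (log2 fold change -3.59, SE 0.229, adjusted p = 8.35e-05 by edgeR), and the 4 kidney values sat close together, far below both ureter values.

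Carnitine carriers were counted in both tissues. Slc22a5, encoding OCTN2, the high-affinity carnitine transporter, was at 29.0 and 32.6 TPM in KO kidneys, 31.2 and 25.8 TPM in WT kidneys, and 10.5 and 14.9 TPM in KO and WT ureter. Kidney was higher by 0.85 (log2, SE 0.167, adjusted p = 0.00772 by edgeR), and by 0.63 (adjusted p = 0.0562) without the KO ureter library. Slc22a21, a mouse carnitine carrier next to it, overlapped between tissues at 8.43 and 10.5 TPM in KO kidneys, 10.3 and 8.39 TPM in WT kidneys and 5.53 and 11.9 TPM in KO and WT ureter. The ergothioneine carrier gene Slc22a4 was at 1.21 and 1.63 TPM in KO kidneys, 1.67 and 2.38 TPM in WT kidneys, 1.302 TPM in the KO ureter and 0.185 TPM in the WT ureter. Neither of these passed the test (adjusted p = 0.574 and 0.395 by edgeR). Slc22a16, a carnitine carrier of testis, was listed at 0 in all 6 libraries.

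Organic anion transporting polypeptides held both kidney genes and genes common to the tissues. Slco4c1, a basolateral carrier of digoxin and thyroid hormone in the proximal tubule, was at 9.80 and 11.7 TPM in KO and 9.94 and 10.02 TPM in WT kidneys. Slco1a6 was at 8.33 and 7.57 TPM in KO and 7.93 and 7.44 TPM in WT kidneys, and Slco1a4, a carrier of bile acids and steroid conjugates, was at 6.50 and 7.14 TPM and at 7.78 and 5.26 TPM. These 3 were listed at 0 in ureter, at least 278-fold to 324-fold lower, with kidney SDs of 0.876 TPM for Slco4c1, 0.398 TPM for Slco1a6 and 1.08 TPM for Slco1a4 (n = 4). Slco4a1, a thyroid hormone carrier, was at 5.81 and 12.6 TPM in KO kidneys, 14.3 and 5.86 TPM in WT kidneys and 0.200 and 0.262 TPM in the KO and WT ureter. It was 31.9-fold higher in kidney (log2 fold change 4.996, SE 0.626, adjusted p = 0.00127 by edgeR). Slco5a1 reached 1.05 and 0.758 TPM in KO and 0.860 and 1.09 TPM in WT kidneys against 0.217 and 0.244 TPM in ureter, and was called higher in kidney (log2 fold change 1.63, SE 0.348, adjusted p = 0.0106 by edgeR), though not with KO libraries only (1.59, adjusted p = 0.0834).

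Slco2a1, the prostaglandin transporter, was at 7.68 and 8.60 TPM in KO kidneys, 7.89 and 6.66 TPM in WT kidneys, 11.4 TPM in the KO ureter and 8.81 TPM in the WT ureter. It was called higher in ureter (log2 fold change -0.77, SE 0.167, adjusted p = 0.0114 by edgeR), and not without the KO ureter library (-0.58, adjusted p = 0.0981). Slco3a1 overlapped between the tissues, with 18.0 and 15.8 TPM in KO kidneys, 19.6 and 14.8 TPM in WT kidneys and 7.67 and 15.0 TPM in KO and WT ureter. Slco2b1 had one low kidney library, with 4.62 and 8.16 TPM in KO kidneys, 5.49 and 1.05 TPM in WT kidneys, and 5.96 and 3.63 TPM in KO and WT ureter. Neither gene passed the test (adjusted p = 0.397 and 0.607 by edgeR). The brain thyroxine carrier Slco1c1 stayed under 0.4 TPM in every library, and the liver carrier Slco1b2 had at most 5 counts. Slco1a1, Slco1a5, Slco6b1, Slco6c1 and Slco6d1 were listed at 0 in all 6 libraries. Slco1a genes share sequence, so a split of reads among them is uncertain.

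Of the 5 other SLC22 genes, 3 were higher in ureter, 1 was higher in kidney and 1 was not called, against 21.4% and 23.7% of all genes tested. Their TPM summed to 107 to 116 in kidney and to 87.1 and 106.9 in KO and WT ureter. Slc22a17, described as a receptor for the siderophore-binding protein lipocalin-2, was the most abundant member in kidney at 89.3 and 91.1 TPM in KO and 93.9 and 92.5 TPM in WT libraries, above the highest value of any other member, and was at 38.0 TPM in the KO ureter and 67.2 TPM in the WT ureter. Its kidney excess was 0.46 on the log2 scale (SE 0.151, adjusted p = 0.0464 by edgeR). That call held under 8 of 15 alternatives and was lost on removal of the KO ureter library (0.17, adjusted p = 0.377) or of any 1 kidney library (0.41 to 0.52, adjusted p = 0.0662 to 0.0994). Slc22a23, a member with no settled substrate, was at 7.47 and 7.05 TPM in KO kidneys, 8.68 and 7.72 TPM in WT kidneys, 32.1 TPM in the KO ureter and 25.5 TPM in the WT ureter. It was 4.88-fold higher in ureter (log2 fold change -2.29, SE 0.161, adjusted p = 0.000115 by edgeR) and, after Slc22a17, the highest member there. Slc22a15 was at 1.64 and 1.81 TPM in KO kidneys, 2.18 and 2.21 TPM in WT kidneys, and 3.80 and 3.74 TPM in KO and WT ureter, a log2 fold change of -1.34 (SE 0.197, adjusted p = 0.00242 by edgeR). The imprinted gene Slc22a18 was at 8.37 and 7.76 TPM in KO kidneys, 10.1 and 8.30 TPM in WT kidneys, and 13.2 and 10.4 TPM in KO and WT ureter. Its ureter excess (log2 fold change -0.82, SE 0.235, adjusted p = 0.0305 by edgeR) was not called without the KO ureter library (-0.45, adjusted p = 0.249) or without KO kidney replicate 1, KO kidney replicate 2 or WT kidney replicate 2 (-0.81 to -0.74, adjusted p = 0.0725 to 0.0926). Slc22a14, known from sperm, stayed under 1 TPM.

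Over all members, 34 passed the filter on low counts and were tested between the tissues, with genotype as a term. In the table's column names KO kidney replicate 2 ends like the KO ureter and WT kidney replicate 2 like the WT ureter. Whether these shared an animal is not stated, and the test treated all 6 libraries as independent. Of the members tested, 22 were higher in kidney and 5 in ureter, and 7 were not called. Among all 16873 genes tested, 23.7% were higher in kidney and 21.4% higher in ureter. The median log2 fold change of the tested members was 2.86 with the genes at 0 in ureter set to their bounds, against 0.08 over all genes. The ureter excess of Slc22a3, Slc22a23 and Slc22a15 was called under all 15 alternatives run for each. Without the KO ureter library 21 members were higher in kidney and 3 in ureter. With limma on log2(FPKM + 1) the share of all called genes that were higher in kidney moved from 52.6% to 71.6% and the median of all genes moved from 0.08 to 0.24, and 22 members were higher in kidney and 3 in ureter, Slc22a18 and Slco2a1 no longer being called. In bulk tissue, fewer cells of a type and less RNA per cell cannot be told apart.

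**Figure D2:**
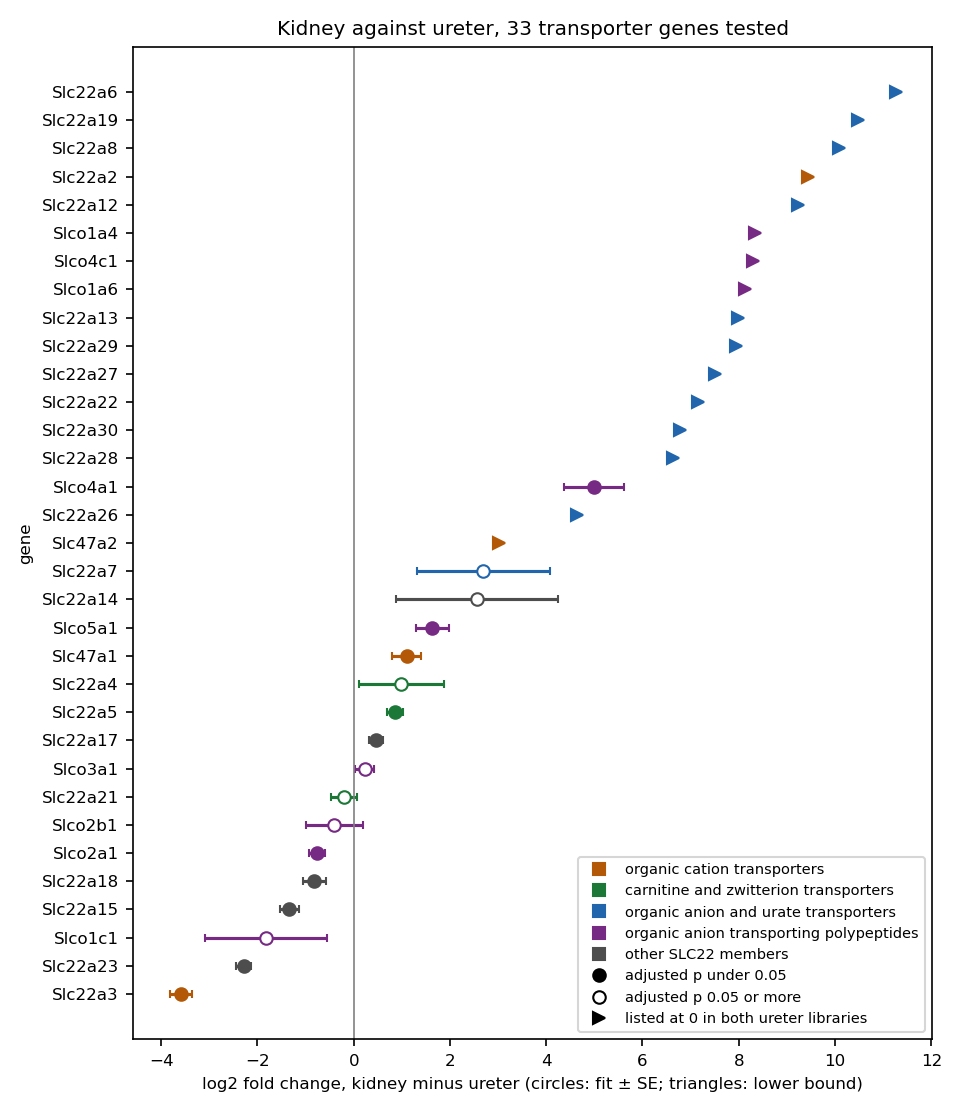
Log2 fold change between kidney and ureter for 33 of the members tested, coloured by role. Circles are fitted values ± SE, open where the adjusted p was 0.05 or more, and triangles are lower bounds for the genes listed at 0 in both ureter libraries. Slc22a3, at -3.59, and Slc22a23, at -2.29, lie at the ureter end, and Slc22a6 lies at the kidney end.

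Partner genes of the same route were set beside the members. Of 18 efflux pumps and coupled carriers, 10 were higher in kidney, 3 higher in ureter and 5 not called, and of 15 scaffold and transcription factor genes 11 were higher in kidney, 2 higher in ureter and 2 not called, by the same edgeR test, against 23.7% higher in kidney and 21.4% higher in ureter over all genes tested. The 4 genes with the largest fitted fold change were Slc17a1 and Slc17a3, apical carriers of phosphate, urate and anions, Slc51b, a subunit of the basolateral bile acid exporter, and Slc13a2, the citrate transporter that loads the cell with dicarboxylates. All 4 were listed at 0 in ureter, and their kidney counts were at least 1101-fold, 421-fold, 142-fold and 123-fold higher. Others are named here after their values were seen. Hnf4a, a transcription factor of the proximal tubule, was at 48.3 to 54.1 TPM in kidney and 0.421 and 0.664 TPM in ureter (log2 fold change 6.14, adjusted p = 8.40e-06 by edgeR). Pdzk1, the apical scaffold that binds URAT1 and other carriers, was at 136 to 240 TPM in kidney and 1.34 and 0.503 TPM in ureter. The efflux pump gene Abcc3 was the strongest in the other direction, at 4.02 to 5.36 TPM in kidney and 88.3 and 94.3 TPM in ureter (log2 fold change -4.67, adjusted p = 3.94e-06 by edgeR).

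Within kidney the question was whether transporter levels differed between Ahnak KO and WT. None of the 34 members tested was called and none had an unadjusted p under 0.05, while 0.0121% of all 16481 genes (2 genes) were called and 227 had an unadjusted p under 0.05, by edgeR's quasi-likelihood test. The smallest adjusted p among members was 0.9999. DESeq2's Wald test also called 0 members, with 44 genes called in all. Fold changes of the members ran from -0.75 to 1.77 on the log2 scale with a median of -0.05, and their SE ran from 0.102 to 1.41 with a median of 0.306. Only Slco1c1 and Slco2b1 had fitted differences beyond 1, at 1.77 (SE 1.41) and 1.01 (SE 0.710), the former on 0 to 31 counts per library and the latter with the low WT kidney replicate 2.

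The values of KO and WT did not overlap in 6 of the 34 members tested. Slc22a8, Slc22a15, Slc22a4, Slc22a23 and Slc22a17 were lower in both KO libraries, and Slco1c1 was higher. Among all genes tested, 17.2% had both KO libraries below both WT libraries and 9.14% had both above. Slc22a8 had a log2 fold change of -0.20 (SE 0.152), Slc22a15 of -0.31 (SE 0.223) and Slc22a17 of -0.02 (SE 0.102). Fold changes were negative in 19 and positive in 15 of the 34 members tested, and negative in 8417 of all 16481 genes. They were negative in 10 of the 12 organic anion and urate genes and in 2 of the 9 organic anion transporting polypeptides, and none of these was called.

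Within each genotype the kidney libraries stood apart for the anion carriers. KO kidney replicate 1 and WT kidney replicate 2 were the highest libraries for 12 of the 27 members present in kidney, among them 9 of the 10 organic anion and urate genes present and also Slc22a2 and Slc47a1. That pair was the highest for 29.5% of all 13810 genes present in kidney. Slc22a19 was at 71.1 and 83.3 TPM in these libraries and at 37.8 and 36.4 TPM in the other two. Slc22a22 was at 6.91 and 8.01 TPM against 2.12 and 1.94 TPM. The order was opposite for Slco4a1, at 5.81 and 5.86 TPM against 12.6 and 14.3 TPM. Summed proximal tubule markers moved with the anion genes, at 1533 and 1451 TPM in these libraries and 999 and 1015 TPM in the other two, with all 14 detected in each, and 12 of the 14 had the same pair on top. Podocyte markers summed to 273.5 and 254 TPM against 210 and 226 TPM, and loop and distal tubule markers to 322 and 361 TPM against 278 and 319 TPM. Among these genes Umod went the other way, at 84.8 and 82.9 TPM against 91.8 and 116 TPM, and Podxl and Kcnj1 were mixed. Collecting duct markers summed to 775 and 641 TPM against 838 and 909 TPM. Within that last list Hsd11b2 went the other way, at 47.7 and 36.4 TPM against 26.5 and 34.4 TPM, and Aqp3 and Avpr2 were mixed. The part of these cell types in the transporter levels was not tested. KO kidney replicate 1 is also the library with Xist, and WT kidney replicate 2 is not. With KO kidney replicate 1 left out, 1 KO kidney library remains, so that fit cannot show the spread within KO.

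**Figure D3:**
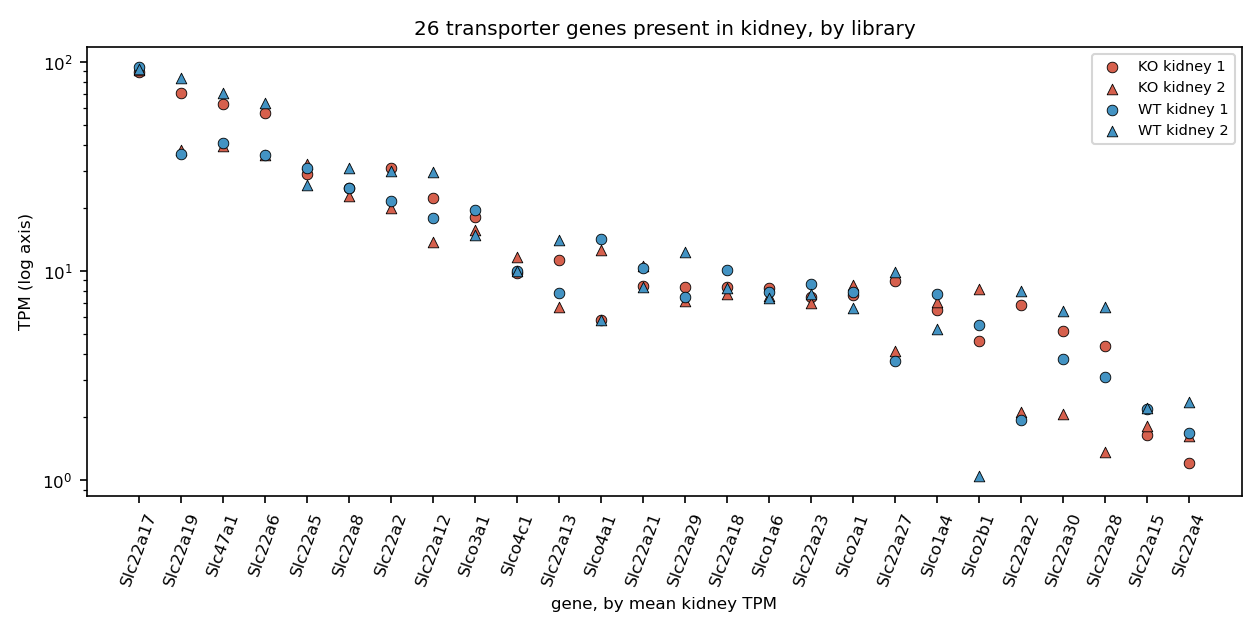
TPM on a log axis for 26 of the members present in kidney, ordered by mean, with 1 point per kidney library, red for KO and blue for WT, circles for replicate 1 and triangles for replicate 2. Slc22a19, Slc47a1 and Slc22a6 split into an upper pair (KO 1 and WT 2) and a lower pair, whereas Slc22a17 and Slco1a6 are tight.

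**Figure D4:**
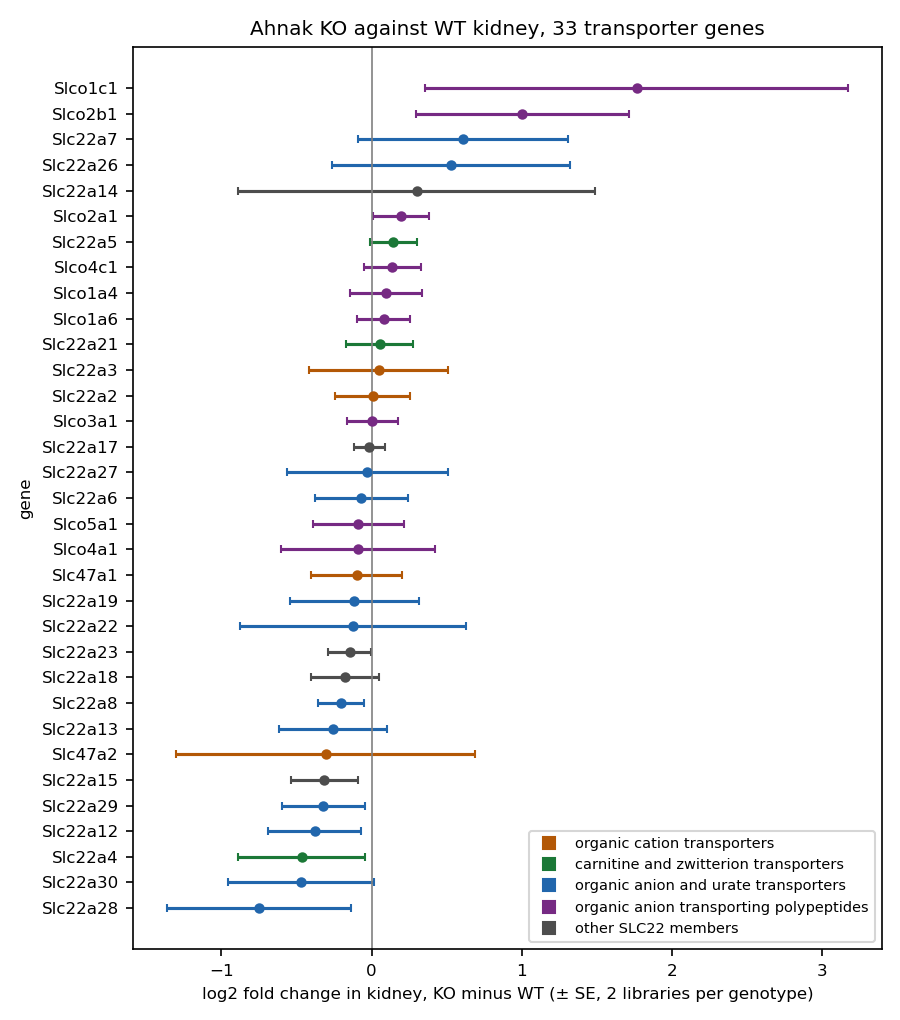
Log2 fold change of KO minus WT in kidney with its SE for 33 of the members tested, coloured by role, with 2 libraries per genotype. Values run from -0.75 for Slc22a28 to 1.77 for Slco1c1, and no member passed the test.

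In ureter there was 1 library per genotype, so values are given with counting error only and without a test. Of 18 members with at least 10 counts in either library, 5 were lower and 13 higher in KO by the log2 ratio of CPM + 0.5, with a median of 0.36 against -0.02 over all 16117 such genes. Past 2-fold, none was lower and 2 were higher in KO, against 6.26% lower and 4.86% higher among all genes. The 2 were Slc22a4, with 58 counts in KO and 13 in WT, and Slc22a20, with 18 counts and 0. The ratio of Slc22a4 was 1.70 with the added 0.5 CPM and 2.95 without it (95% exact counting interval 2.06 to 3.94, log2), and Slc22a20 was at least 10.4-fold higher in the KO library over a floor of 3 counts. Slc22a7 had 11 counts against 0, at least 6.35-fold higher over that floor, and lay under 2-fold once 0.5 CPM was added.

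The carriers with many ureter counts moved by less than 2-fold in either direction. Without the added CPM, Slc22a21 had a log2 ratio of -0.91 (interval -1.12 to -0.70), Slco3a1 of -0.66 (-0.79 to -0.52) and Slc22a17 of -0.63 (-0.71 to -0.55), on 1698 counts in KO and 4543 in WT for Slc22a17. Slco2b1 had a ratio of 0.91 (0.73 to 1.08), Slco2a1 of 0.56 (0.43 to 0.69), Slc22a23 of 0.53 (0.46 to 0.59) and Slc47a1 of 0.48 (0.36 to 0.60). Slc22a3, the cation carrier that was higher in ureter than in kidney, had 0.25 (0.07 to 0.42). These intervals leave out variation between animals. Between the same libraries, KO and WT, macrophage markers summed to 241 and 163 TPM and smooth muscle markers to 4404 and 5772 TPM. Within these lists Mrc1 was at 24.3 and 24.5 TPM. Myh11, at 395 and 382 TPM, and Des, at 86.3 and 76.4 TPM, were higher in KO. Striated muscle markers summed to 200 and 521 TPM, with every gene of that list lower in KO. Red blood cell markers summed to 1470 and 3629 TPM, though Hba-a1 and Hbb-bt were higher in KO. The brown fat list summed to 1320 and 752 TPM, almost all Fabp4. Adipoq of that list was also higher in KO, at 7.06 and 0.492 TPM, while Ucp1, Cidea and Ppargc1a were lower. Rn45s took 8.06% of KO counts. The part of these differences in the transporter ratios was not tested. With scaling by library size alone the median of all genes moved to -0.20, 1 member was past 2-fold lower in KO and 1 higher.

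The difference between the tissues in the KO change was tested in a fit over all 6 libraries, in which each lone ureter library is assumed to vary like the kidney libraries. None of 35 members was called, against 0.108% of 17557 genes, by edgeR's test, and DESeq2's Wald test called 0 members too. With edgeR 5 members had an unadjusted p under 0.05 (Slc22a4, Slc22a17, Slc22a23, Slc22a7 and Slc22a21), where 12.4% of all genes did. The smallest adjusted p was 0.229, for Slc22a4, with a difference of 3.40 on the log2 scale (SE 0.855). For Slc22a17 the KO change was -0.02 in kidney and the difference of ureter from kidney was -0.62 (SE 0.184, adjusted p = 0.285). The 16 members tested that were listed at 0 in both ureters carry no information on this difference.

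**Figure D5:**
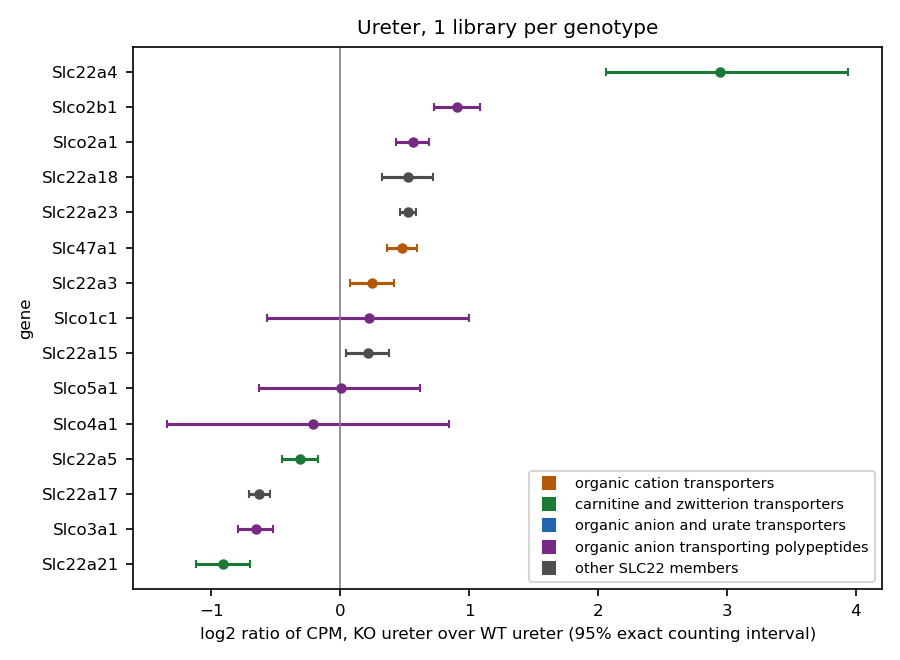
Log2 ratio of CPM in the KO ureter library over the WT ureter library, without an added count, for 15 members with counts in both and at least 10 in either, with the 95% exact counting interval as bars. Slc22a4 stands at 2.95 with a wide interval, and Slc22a21 is lowest at -0.91.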

How the data were processed

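RNA of 4 kidney and 2 ureter samples was sequenced on an Illumina HiSeq2500 after a stranded mRNA kit, per the study's methods. The methods name Cutadapt, STAR with GRCm39 and Cufflinks, and the submitters' processing notes name Trimmomatic 0.38, HISAT2 2.1.0, StringTie 1.3.4b and mm10, so the pipeline is not settled. The authors deposited an estimated count (a whole number), FPKM and TPM for each gene and library. The deposited estimated counts are not normalized, and the authors scaled FPKM and TPM by gene length and depth.

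Groups came from the labels. Levels are the deposited TPM. Tests had been planned for counts and were run on the deposited estimated counts with edgeR 4.0.16 in R 4.3.3 (TMM, filterByExpr, quasi-likelihood test, Benjamini-Hochberg adjustment over all genes tested, threshold 0.05). The kidney fit had genotype alone (2 residual degrees of freedom), and the tissue fit had tissue and genotype (3 residual degrees of freedom). SE is the absolute log2 fold change over the square root of F, an approximation. Ureter libraries were compared by ratios with a 95% exact (Clopper-Pearson) counting interval, in Python 3.11.15 with scipy 1.17.1. Counts were simulated with 200 genes changed by 2 on the log2 scale and a dispersion of 0.05. The kidney fit recovered 99.5% of them over 14616 genes, and the tissue fit 100% and the interaction 38.5% over 14708. Genes with low counts and changes smaller than 2 were not simulated, and the fitted common dispersions were 0.054, 0.0724 and 0.0592. Kidney KO changes of the members ran from -0.75 to 1.77, so their recovery is not known from this simulation. Alternatives used DESeq2 1.42.0, limma 3.58.1 on log2(FPKM + 1) or log2(FPKM + 0.1), other filters and thresholds, a replicate block, and each library left out in turn. PCR duplicates are not marked, so floors and intervals cover counting error only.

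The 42 members, their roles and the lists of partner and marker genes were chosen with earlier results of these data known. The values of 1 member are not reported here, although it stays in the counts over all members. The other members with TPM of at least 1 in any library are given by library, and of the partner lists the 4 called genes with the largest fold change are named. Gene numbers of 24462 genes and all 42 members matched RefSeq on GRCm38.p6, and 27 date-like symbols were replaced by gene number. No protein sequences were used here.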

Additional observations from a re-analysis of the deposited data

How the results depend on the processing

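Across the alternatives 0 members were called between KO and WT in kidney, with or without a replicate block (the block gave 0 of 34 members and 0 of all genes, and the test without it 0 members and 2 genes). Deviations of same-numbered kidney libraries from their genotype mean had a weak negative correlation over genes (-0.193). A crossed pairing, added after the data were examined, called 1 gene and 0 members. For all genes, DESeq2 called 44, and 0 members were called with 1 kidney library left out, while all called genes numbered 46 without KO kidney replicate 1, 87 without KO kidney replicate 2, 10 without WT kidney replicate 1 and 3 without WT kidney replicate 2. The tissue calls of single members kept their direction in every alternative that gave a value, and the call was lost in 33 of 389 cases.

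Members higher in kidney than in ureter numbered 22, and 6 where at least 10 counts in every library were required, which removes genes at 0 in ureter by construction. They numbered 20 to 21 with 1 library left out. Members higher in ureter numbered 5, and 3 with limma on log2(FPKM + 1), log2(FPKM + 0.1) or WT libraries only, and 3 to 5 with 1 library left out. Partner genes higher in kidney numbered 21, and 9 with at least 10 counts in every library, or 16 to 21 with 1 library left out, and those higher in ureter numbered 5, and 3 to 6 with 1 library left out. In ureter, members past 2-fold lower in KO numbered 0, and 1 with library size alone or with deposited TPM + 0.1, and those higher in KO numbered 2, and 1 with library size alone or with at least 50 counts. Members present numbered 22 to 31 in kidney and 12 to 16 in ureter under the other thresholds. The causes of the other changes were not tested.

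With 2 kidney libraries per genotype and 1 ureter library per genotype, the spread between animals is poorly known, and the tissues differ in several cell types at once.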
